A study of Mus musculus with 4 samples.

Results

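Gluconeogenesis was examined in lungs of E16.5 mouse embryos through 8 genes: the fructose bisphosphatase genes Fbp1 and Fbp2, and Pck1, Pck2, G6pc, G6pc3, Pcx and Slc37a4. All 8 were found by symbol among the 22556 genes of the deposited table, in which each value is an FPKM, that is, a read count scaled by transcript length and by the mapped reads of the library. Fbp1 and Fbp2 set the choice because both were high in the lungs without epithelial Stk11, so their differences are described here without a test. The other 6 genes were added as the remaining steps of the same pathway, with earlier results of these data known. Of the 8, 6 reached a mean of 0.5 FPKM over the libraries and entered the fit across all 13770 such genes. Pck1 and G6pc did not.

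The comparison was between 2 genotypes, each with 2 libraries of whole-lung RNA. Control embryos were Shh-Cre; Stk11F/+, and Shh-Stk11 embryos were Shh-Cre; Stk11F/F, so both genotypes carried the Cre driver and at least 1 floxed allele. Shh-Cre acts in the endoderm from which lung epithelium forms, and Stk11 therefore stays intact in mesenchyme, vessels and blood, whose RNA is in the same libraries. The labels gave the strain as C57BL/6 whereas the methods described mixed backgrounds, and neither source gave the sex or the litter of an embryo.

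Gluconeogenesis builds glucose from lactate, amino acids and glycerol. It runs most of glycolysis backwards and bypasses the steps that glycolysis cannot reverse. Pyruvate carboxylase (Pcx) and the phosphoenolpyruvate carboxykinases (Pck1 in the cytosol, Pck2 in mitochondria) lead pyruvate to phosphoenolpyruvate. Fructose bisphosphatases (Fbp1, best known from liver and kidney, and Fbp2, best known from muscle) remove a phosphate that phosphofructokinase adds. In the endoplasmic reticulum, glucose-6-phosphate enters through the transporter Slc37a4 and is split by G6pc in liver and kidney, or by the widely expressed G6pc3. STK11 activates AMPK and the related SIK kinases, which in liver hold back the CREB-driven fasting program that includes gluconeogenic genes. Fetal lung is not known as a glucose-producing organ, but its epithelium stores glycogen.

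The libraries were first checked against their labels. Stk11 was at 44 and 45.5 FPKM in Control and at 29.5 and 26 FPKM in Shh-Stk11 lungs, a difference of -0.69 on the log2 scale (SE 0.125, limma adjusted p 0.0499). The lung genes were present throughout, with Sftpc, the surfactant gene that marks distal epithelium, between 8005 and 17426 FPKM. Low values corresponded to an estimated depth of 30.8 to 38 M reads per library. By Xist and the Y-linked gene Ddx3y, Shh-Stk11 2 was male and the other 3 libraries were female.

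Fbp1 and Fbp2 lie next to each other on chromosome 13, on the same strand, with 0 coding genes between them in GENCODE M21. Their promoters are shown because these neighbours were the members with the largest differences. The windows run from 250 bases before to 50 bases after the start in RefSeq (GRCm38.p6), chr13:62888233-62888532 for Fbp1 and chr13:62858351-62858650 for Fbp2, both on the minus strand and written 5′ to 3′. Capitals mark matches to the motifs searched.
Fbp1: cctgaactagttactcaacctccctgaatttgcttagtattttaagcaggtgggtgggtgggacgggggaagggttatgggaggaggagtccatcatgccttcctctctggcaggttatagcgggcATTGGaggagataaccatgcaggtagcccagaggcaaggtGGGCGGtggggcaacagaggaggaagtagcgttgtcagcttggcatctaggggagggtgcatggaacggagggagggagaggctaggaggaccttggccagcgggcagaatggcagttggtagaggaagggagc
Fbp2: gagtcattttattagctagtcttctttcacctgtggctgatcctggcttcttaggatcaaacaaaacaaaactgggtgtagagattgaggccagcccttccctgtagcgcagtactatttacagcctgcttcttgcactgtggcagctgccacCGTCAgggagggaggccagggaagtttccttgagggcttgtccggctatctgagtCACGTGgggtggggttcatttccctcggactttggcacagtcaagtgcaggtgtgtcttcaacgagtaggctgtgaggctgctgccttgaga

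Motifs were searched on both strands: the cAMP response element TGACGTCA and its half-site TGACG, the FOXO core TGTTTAC, the E-box CACGTG, the GC box GGGCGG, the CCAAT box and the TATA box TATAAA. A half-site also lies inside every full element. In the Fbp1 window a GC box began at -84 and a reversed CCAAT box at -124 from the start, motifs held by 35.7% and 37.4% of the 32851 windows of the same length. In the Fbp2 window a reversed half-site began at -97 and an E-box at -42, motifs held by 20.8% and 7.15% of windows. The searched letters thus gave these neighbours no motif in common.

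All 8 members matched the RefSeq promoter table, Slc37a4 with 3 windows and Pcx with 2. The full cAMP response element, held by 1.79% of windows, was in none of their windows, and neither was the FOXO core, held by 3.65%. Half-sites stood in the windows of Fbp2, Pck1 (reversed, at -90) and Slc37a4, and E-boxes in those of Fbp2, G6pc3 and Pcx. Such matches describe letters in a short window only.

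Fbp1 was at 0.642 and 0.516 FPKM in Control and at 13.8 and 13.7 FPKM in Shh-Stk11 lungs. The groups did not overlap, and the Shh-Stk11 replicates were nearly equal. Groups without overlap and with Shh-Stk11 higher, whatever the size of the gap, were found for 19.2% of all tested genes. The mean went from 0.579 ± 0.0891 to 13.7 ± 0.0942 FPKM (SD, n = 2), a ratio of 23.7, and the ratio lay between 21.3 and 26.8 over the 4 pairs of a Shh-Stk11 with a Control library. On the log2(FPKM + 0.1) scale used for all differences below, which understates the change of low genes, the difference was 4.36 (SE 0.177). Bulk RNA cannot tell more expressing cells from more RNA per cell, here and in the results that follow.

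Fbp2 was at 0.531 and 0.902 FPKM in Control and at 23 and 14.2 FPKM in Shh-Stk11 lungs. The groups again did not overlap, but the replicates within each genotype were further apart than those of Fbp1. The mean went from 0.717 ± 0.262 to 18.6 ± 6.25 FPKM (SD, n = 2), a ratio of 25.9, and single library pairs gave 15.7 to 43.3. The log2 difference was 4.51 (SE 0.307). Without Shh-Stk11 2, the male library, the differences were 4.86 for Fbp2 and 4.36 for Fbp1. Ordered from the most positive to the most negative log2 difference, Fbp2 ranked 13 and Fbp1 ranked 17 of the 13770 genes tested.

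The FPKM values of both genes were whole multiples of one step per library, within 0.00164 of a read, so that the reads behind them could be counted. Fbp1 rested on 30 and 20 reads in Control and on 523 and 558 reads in Shh-Stk11 lungs. Fbp2 rested on 22 and 31 reads in Control and on 772 and 512 reads in Shh-Stk11 lungs. These are the smallest whole numbers that fit all 4 libraries.

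With depth taken into account, Fbp1 differed between the Shh-Stk11 replicates by a ratio of 1.01 (95% exact interval 0.894 to 1.14), and Fbp2 by a ratio of 1.62 in favour of Shh-Stk11 1 (1.45 to 1.82). Between the Control replicates the ratios were 1.24 for Fbp1 (0.684 to 2.31) and 0.589 for Fbp2 (0.325 to 1.05). These intervals cover counting error only, not the spread between embryos, and are given as a description.

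The balance of the paralogs differed from library to library. The ratio of Fbp2 to Fbp1 in FPKM was 0.827 and 1.75 in the Control libraries and 1.67 and 1.03 in the Shh-Stk11 libraries. The Control ratios rest on 20 to 31 reads a gene, too few to order the genes in those libraries.

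The symbols of this pair have been exchanged in the past, since RefSeq lists Fbp1 among the synonyms of Fbp2 and Fbp2 among those of Fbp1. In Control 1 a read was worth 0.0214 FPKM for the row named Fbp1 and 0.0241 FPKM for the row named Fbp2, which makes Fbp1 the longer transcript. The longest GENCODE transcripts are 1479 bases for Fbp1 and 1354 bases for Fbp2, in the same order. The 2 transcripts share 0 of their stretches of 50 bases, the read length, with each other or with any other GENCODE gene, and their longest identical run is 23 bases. They are 72.2% identical over 980 aligned bases.

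**Figure D1:**
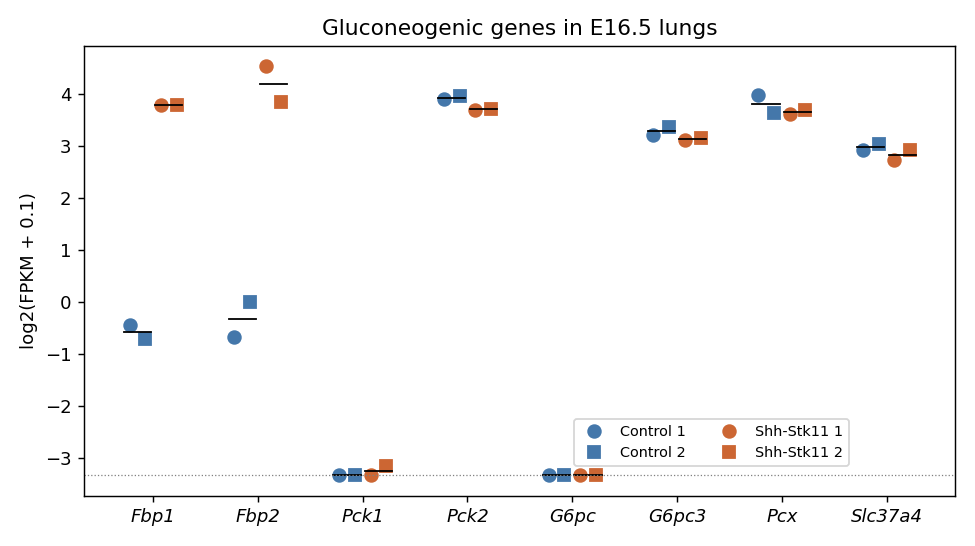
Level of each of the 8 genes in every library, as log2(FPKM + 0.1); points are libraries, short black lines the mean of the 2 libraries of a genotype, and the dotted line a value of 0 FPKM. Fbp1 and Fbp2 lie between 0.516 and 0.902 FPKM in Control and between 13.7 and 23 FPKM in Shh-Stk11, Pck2, G6pc3, Pcx and Slc37a4 have slightly lower means in Shh-Stk11 and passed no test, and Pck1 and G6pc are at or next to 0.

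Of the enzymes that begin the pathway, Pcx makes oxaloacetate from pyruvate. It was at 15.7 and 12.3 FPKM in Control and at 12.1 and 12.9 FPKM in Shh-Stk11 lungs, so the groups overlapped. The log2 difference was -0.15 (95% interval -0.52 to 0.22, limma adjusted p 0.703), and it was 0.02 without Control 1.

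Pck2, the mitochondrial carboxykinase, was at 14.8 and 15.5 FPKM in Control and at 12.9 and 13 FPKM in Shh-Stk11 lungs. Both Shh-Stk11 values lay below both Control values, an arrangement that 27.6% of all tested genes showed in this direction. The log2 difference of -0.23 (95% interval -0.51 to 0.06) had a limma adjusted p of 0.439, above the threshold of 0.05. Its interval corresponded to 70.2% to 104% of the Control level.

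Pck1, the cytosolic carboxykinase that is strongly induced in fasting liver, was listed at 0 in both Controls and in Shh-Stk11 1, and at 0.0125 FPKM in Shh-Stk11 2. That value was the worth of 1 read. For a transcript of its length 3 reads would have given 0.0313 to 0.0386 FPKM, so no difference was detectable at this depth.

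At the last step, G6pc, the glucose-6-phosphatase of liver and kidney, was listed at 0 in all 4 libraries, where 3 reads would have given 0.0357 to 0.044 FPKM. Its paralog G6pc2, known from pancreatic islets, was likewise listed at 0 throughout. The widely expressed G6pc3 was at 9.13 and 10.2 FPKM in Control and at 8.62 and 8.83 FPKM in Shh-Stk11 lungs. The log2 difference was -0.14 (95% interval -0.46 to 0.17, limma adjusted p 0.663), and 0.04 once the trends with transcript length and GC content were removed.

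The transporter Slc37a4 was at 7.46 and 8.17 FPKM in Control and at 6.57 and 7.5 FPKM in Shh-Stk11 lungs, with one Shh-Stk11 value just above the lower Control. Its log2 difference was -0.15 (95% interval -0.49 to 0.19, limma adjusted p 0.674), and 0.01 with those trends removed.

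Of the 4 tested members outside the fructose bisphosphatases, 0 passed the threshold in limma, beside 2.27% of all tested genes, and 0 had an unadjusted p under 0.05, beside 15.2% of all tested genes. Their median log2 difference was -0.15, against -0.05 over all tested genes, and 2 of the 4 had groups that did not overlap, against 46.8% of all tested genes. The upper ends of their intervals lay between 104% and 117% of the Control level.

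In Control lungs the order by mean FPKM was Pck2 (15.1 ± 0.465), Pcx (14 ± 2.39), G6pc3 (9.66 ± 0.758) and Slc37a4 (7.81 ± 0.501), followed far below by Fbp2 and Fbp1. Pck2 and Pcx, and likewise Fbp2 and Fbp1, did not differ beyond their spread. In Shh-Stk11 lungs Fbp2 (18.6 ± 6.25) and Fbp1 (13.7 ± 0.0942) had the highest means, followed by Pck2 (12.9 ± 0.072), Pcx (12.5 ± 0.565), G6pc3 (8.73 ± 0.151) and Slc37a4 (7.04 ± 0.662). Fbp2 there was not separated from Fbp1, Pck2 or Pcx, nor Pck2 from Pcx, by more than the spread (SD, n = 2 each). Fbp1 and Fbp2 together made up 2.43% and 2.98% of the summed FPKM of the 6 expressed members in Control, and 47.8% and 39.7% in Shh-Stk11 lungs.

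Fructose bisphosphatase stands opposite phosphofructokinase, whose subunits are encoded by Pfkl, Pfkm and Pfkp. Their summed level was 88.6 and 78.7 FPKM in Control and 70 and 85.9 FPKM in Shh-Stk11 lungs, with overlapping groups. Against this, the summed level of Fbp1 and Fbp2 was 1.17 and 1.42 FPKM in Control and 36.8 and 27.8 FPKM in Shh-Stk11 lungs. The bisphosphatase mRNA thus stood at 1.32% and 1.8% of the phosphofructokinase mRNA in Control and at 52.6% and 32.4% in Shh-Stk11 lungs. No phosphofructokinase gene passed the threshold, with log2 differences of -0.18 for Pfkl, -0.19 for Pfkm and 0.39 for Pfkp.

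**Figure D2:**
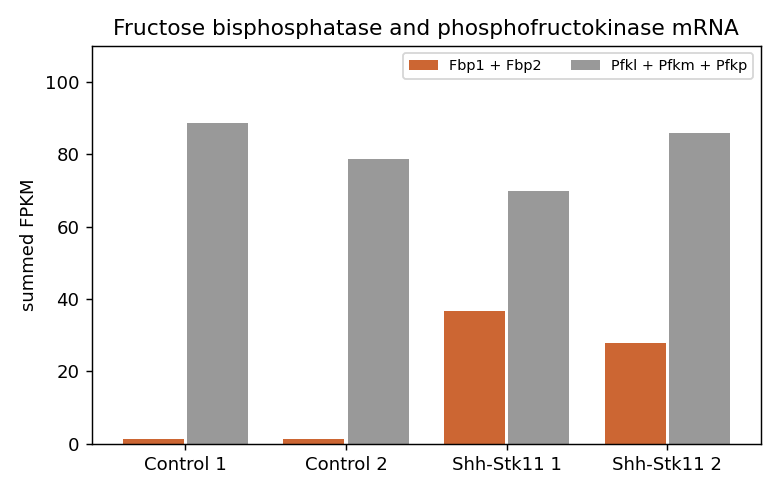
Summed FPKM of Fbp1 and Fbp2 and of the phosphofructokinase genes Pfkl, Pfkm and Pfkp in each of the 4 libraries. The first sum goes from 1.17 and 1.42 in Control to 36.8 and 27.8 in Shh-Stk11, while the second ranges from 70 to 88.6 over all libraries.

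The remaining genes around this step were taken from 8 lists of enzymes and regulators. Of their 81 tested genes, 1 was higher and 1 was lower past the threshold in limma, beside 0.98% and 1.29% of all tested genes, and 11 had an unadjusted p under 0.05, against 15.2% of all tested genes. The median log2 difference over the 81 genes was -0.06. Over all 13770 tested genes 5737 differences were positive and 8033 were negative, which is the background for the counts of signs given below.

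Fructose 2,6-bisphosphate, which inhibits fructose bisphosphatase, is made and broken down by the PFKFB enzymes and broken down by Tigar. None of these 5 genes passed the threshold in limma, and 1 had an unadjusted p under 0.05. Pfkfb2 was at 16.6 and 12.8 FPKM in Control and at 21.9 and 26.6 FPKM in Shh-Stk11 lungs, with a log2 difference of 0.72 (SE 0.174, limma adjusted p 0.102). The others lay between -0.38 for Pfkfb3 and 0.07 for Tigar.

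Among the 6 tested glycolytic enzymes opposite the bypass, 0 were called by limma and 1 had an unadjusted p under 0.05. The log2 difference was positive for 1 and negative for 5, with a median of -0.15. The most negative was that of Hk2, a hexokinase, at 9.05 and 7.05 FPKM in Control and at 6.44 and 5.52 FPKM in Shh-Stk11 lungs (log2 difference -0.42, limma adjusted p 0.328). Both of its Shh-Stk11 values were below both Controls, an arrangement that 27.6% of all tested genes showed in this direction.

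Of the 11 tested enzymes shared by both directions of the pathway, 1 was called. Pgam2, the muscle form of phosphoglycerate mutase, fell from 14 and 12.9 FPKM in Control to 6.72 and 5.25 FPKM in Shh-Stk11 lungs (log2 difference -1.17, SE 0.161, limma adjusted p 0.0247). It was no longer called without the filter on low values (limma adjusted p 0.0975), with a replicate block (0.0982), with the length and GC trends removed (log2 difference -0.91, limma adjusted p 0.13), or with Control 1, Control 2 or Shh-Stk11 2 left out (limma adjusted p 0.17, 0.149 and 0.0774). The widely expressed Pgam1 had a log2 difference of -0.10.

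The 17 genes for the entry of lactate, alanine and glycerol held 0 limma calls, 2 unadjusted p under 0.05 and a median of -0.02. The largest difference was that of the glycerol phosphate dehydrogenase gene Gpd1, at 3.46 and 2.27 FPKM in Control and 4.03 and 5.14 FPKM in Shh-Stk11 lungs (log2 difference 0.68, limma adjusted p 0.249). Its mitochondrial counterpart Gpd2 had a difference of 0.37 (limma adjusted p 0.255). Gpd1 and Gpd2 had both Shh-Stk11 values above both Controls, an arrangement that 19.2% of all tested genes showed in this direction.

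Glucose-6-phosphate is also the entry to glycogen and to the pentose phosphate pathway. Of 16 tested glycogen genes, 0 were called by limma and 1 had an unadjusted p under 0.05. Differences were positive for 2 and negative for 14, with a median of -0.09. The largest difference was 0.37 for Phkb, a subunit of phosphorylase kinase (limma adjusted p 0.205). The glycogen primer gene Gyg, the most abundant of the list, was at 539 and 422 FPKM in Control and at 314 and 437 FPKM in Shh-Stk11 lungs. The 8 pentose phosphate genes had 0 limma calls, 0 unadjusted p under 0.05 and a median of -0.04, and the largest difference was -0.31 for Pgls (limma adjusted p 0.417).

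The 4 tested genes of fructose and polyol metabolism all had negative differences, with a median of -0.43, 0 limma calls and 2 unadjusted p under 0.05. Akr1b3, aldose reductase, was at 5.84 and 11.5 FPKM in Control and at 3.94 and 3.05 FPKM in Shh-Stk11 lungs (log2 difference -1.22, limma adjusted p 0.12). Sord, which turns sorbitol into fructose, was at 14.6 and 14.1 FPKM in Control and at 7.52 and 9.58 FPKM in Shh-Stk11 lungs (log2 difference -0.75, limma adjusted p 0.0698).

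**Figure D3:**
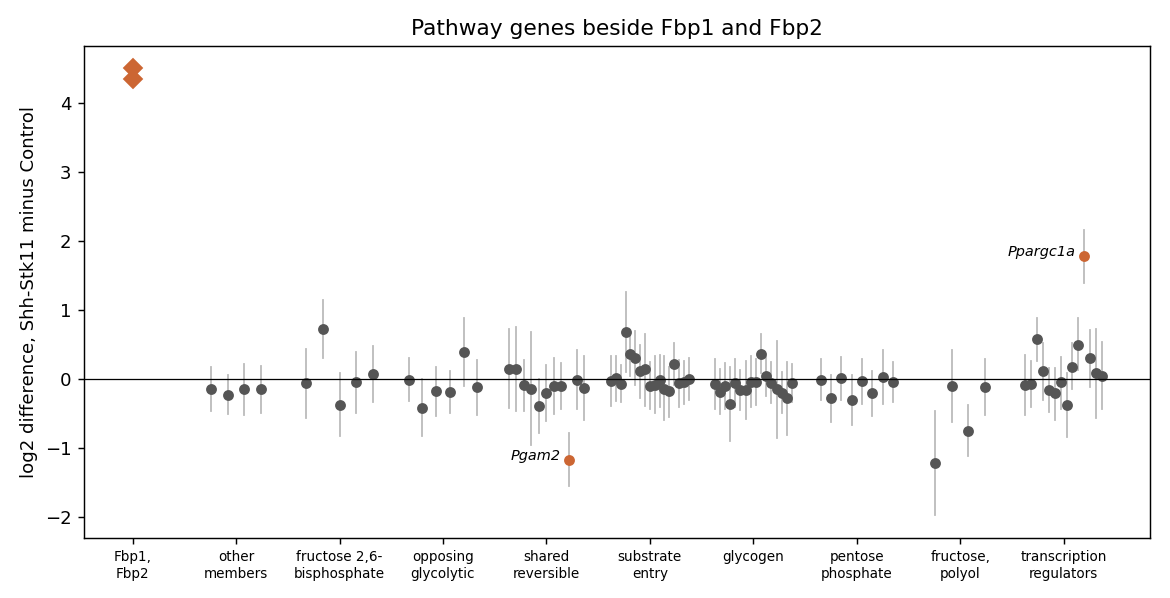
Log2 difference (Shh-Stk11 minus Control) of each tested pathway gene, grouped by list; grey lines are 95% intervals from limma, orange circles and names mark genes with an adjusted p of at most 0.05, and orange diamonds are Fbp1 and Fbp2, shown without interval or test. Fbp1 and Fbp2 lie above 4, every other gene lies between -1.22 and 1.78, and Pgam2 and Ppargc1a are the named genes.

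Among 14 tested transcription regulators of the fasting program, 1 was called. Ppargc1a, the co-activator PGC1-alpha that drives gluconeogenic genes in liver, rose from 2.28 and 1.99 FPKM in Control to 7.2 and 7.97 FPKM in Shh-Stk11 lungs (log2 difference 1.78, SE 0.16, limma adjusted p 0.00525). The call was lost without Control 1 (limma adjusted p 0.058) and without Control 2 (0.0776), with log2 differences of 1.87 and 1.69, and with a replicate block (0.0721).

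Creb1, which binds cAMP response elements, was at 14 and 13 FPKM in Control and at 21.7 and 18.8 FPKM in Shh-Stk11 lungs (log2 difference 0.58, limma adjusted p 0.0885). The nuclear receptor gene Nr4a1 had a difference of 0.50 (limma adjusted p 0.184). Hnf4a, the hepatic nuclear receptor that G6pc and Pck1 depend on in liver, was at most 0.019 FPKM in any library. The remaining regulators, among them the CREB co-activators Crtc1 to Crtc3, the kinases Sik1 to Sik3 and Foxo1, lay between -0.38 and 0.30.

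Markers of liver and of stomach and intestine were low, and no kidney markers were examined. Of 10 hepatocyte markers 2 were tested, 0 were called and 0 had an unadjusted p under 0.05, and Serpina1a was listed at 0 throughout. Their summed level was 3.42 and 3.51 FPKM in Control and 1.92 and 2.38 FPKM in Shh-Stk11 lungs, with Apoa2 the most abundant at up to 2.68 FPKM. Of 8 gastric and intestinal markers 0 reached the filter. Tff1 was at 0 throughout, and Vil1 was the most abundant at up to 0.278 FPKM. This list summed to 0.286 and 0.294 FPKM in Control and to 0.426 and 0.55 FPKM in Shh-Stk11 lungs, a difference that was not tested.

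Skeletal muscle markers, of which 4 of 10 were tested, 0 called and 0 at an unadjusted p under 0.05, summed to 15.6 and 27.5 FPKM in Control and to 17.6 and 15.5 FPKM in Shh-Stk11 lungs. The most abundant were the creatine kinase gene Ckm, at 5.04 and 12.2 FPKM in Control and at 5.63 and 1.97 FPKM in Shh-Stk11 lungs, and the myosin light chain gene Mylpf, at 7.14 and 10.5 FPKM against 9.05 and 9.5 FPKM. Myod1, which defines muscle precursors, was listed at 0 throughout. Heart muscle markers, of which 5 of 6 were tested, 0 called and 0 at an unadjusted p under 0.05, summed to 109 and 243 FPKM in Control and to 139 and 53.4 FPKM in Shh-Stk11 lungs. The most abundant, the atrial myosin light chain gene Myl7, was at 42.3 and 108 FPKM in Control and at 58.6 and 17.2 FPKM in Shh-Stk11 lungs. The part of muscle RNA in the levels of Fbp1 and Fbp2 was not tested.

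The epithelium of the lung itself was represented throughout. All 6 markers of general and distal lung epithelium were tested, 5 had positive differences and 0 were called. A limma unadjusted p under 0.05 was found for 2 of them, against 15.2% of all tested genes. Sftpc, the most abundant and the one with a negative difference, was at 17426 and 15784 FPKM in Control and at 8005 and 12048 FPKM in Shh-Stk11 lungs (log2 difference -0.76, limma adjusted p 0.447). The general epithelial marker Epcam was at 95.5 and 119 FPKM in Control and at 119 and 120 FPKM in Shh-Stk11 lungs. The genes with an unadjusted p under 0.05 were Cdh1, E-cadherin, at 130 and 105 FPKM in Control and at 165 and 162 FPKM in Shh-Stk11 lungs (log2 difference 0.49, limma adjusted p 0.184), and the distal progenitor gene Sox9 (log2 difference 0.72, limma adjusted p 0.238). The list summed to 18350 and 16619 FPKM in Control and to 9103 and 13200 FPKM in Shh-Stk11 lungs, sums made up almost wholly of Sftpc. Multiciliated cell markers were lower in Shh-Stk11 lungs, with 5 of 6 tested genes called, beside 1.29% of all tested genes called lower. This list summed to 51.9 and 53.4 FPKM in Control and to 20.3 and 18.1 FPKM in Shh-Stk11 lungs. The called genes were Foxj1, Myb, Ccno, Deup1 and Tekt2, with log2 differences between -1.99 for Tekt2 and -0.87 for Ccno. Of the 3 tested airway secretory genes, 1 was called lower and 0 were called higher, beside 1.29% and 0.98% of all tested genes. Scgb3a2 fell from 552 and 679 FPKM to 286 and 185 FPKM (log2 difference -1.41, limma adjusted p 0.0422). Scgb1a1 was at 221 and 102 FPKM in Control and at 312 and 471 FPKM in Shh-Stk11 lungs (log2 difference 1.35, limma adjusted p 0.144), and Cyp2f2 had a difference of 0.00. Muc5b, under the filter, was at 0.0178 and 0.0364 FPKM in Control and at 0.737 and 0.285 FPKM in Shh-Stk11 lungs. The part of these shifts in the levels of Fbp1 and Fbp2 was not tested.

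Because Fbp1 and Fbp2 are neighbours, the 5 nearest coding genes of the table on either side were examined. Of these 10 genes 9 were tested, 0 were called and 4 had an unadjusted p under 0.05, against 15.2% of all tested genes. On the side of Fbp2 all 5 genes, Zfp808, Gm3604, Zfp935, Zfp934 and 6720489N17Rik, had positive log2 differences between 0.62 and 0.91. Zfp935 came closest to the threshold, at 2.78 and 3.43 FPKM in Control and 6.06 and 5.6 FPKM in Shh-Stk11 lungs (log2 difference 0.89, limma adjusted p 0.0553). With the length and GC trends removed these 5 lay between 0.32 and 0.65. Zfp934 and Zfp935 overlap on the same strand in GENCODE M21, so their separate values are uncertain, and the part of shared reads in them was not tested.

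On the side of Fbp1, the nearest gene 2010111I01Rik had a log2 difference of -0.13 and Fancc, which overlaps it, one of -0.03 that turned to 0.11 with the trends removed. Ptch1, the Hedgehog receptor, had a difference of 0.33 (limma adjusted p 0.408) and Ercc6l2 one of 0.52 (limma adjusted p 0.2). Hsd17b3 was under the filter, at 0.0586 FPKM or less. The 9 tested neighbours had log2 differences between -0.13 and 0.91. Because Fbp1 and Fbp2 were chosen for their rise, a larger difference in the pair than in its neighbours was largely set by that choice.

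**Figure D4:**
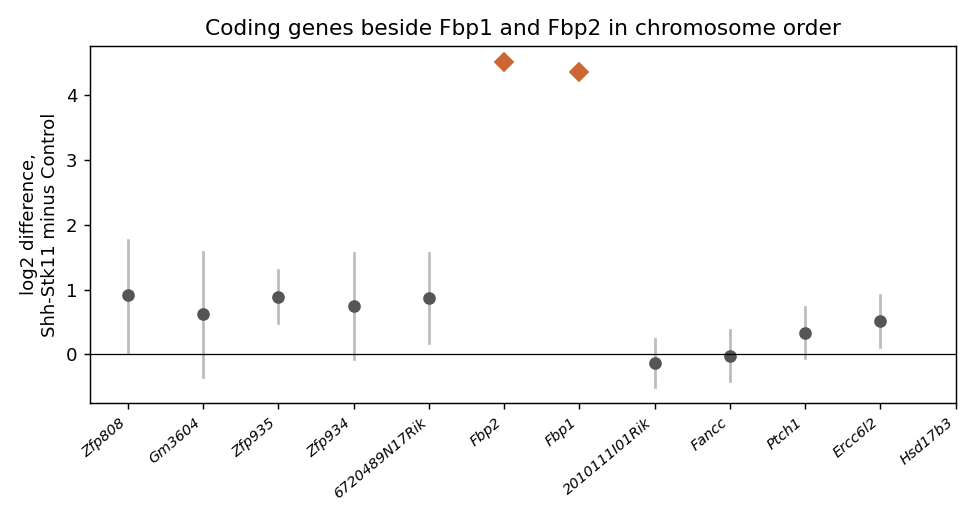
Log2 difference (Shh-Stk11 minus Control) of Fbp1 and Fbp2 (diamonds, no test) and of the 5 nearest coding genes on either side in chromosome order (circles with 95% intervals from limma; Hsd17b3 was not tested). The pair lies above 4, and the tested neighbours between -0.13 and 0.91.

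The tested genes with values most like those of Fbp1 over the 4 libraries, by Euclidean distance between centred log2(FPKM + 0.1) values, were Pax7 (0.42), Fbp2 (0.83), Oosp1 (0.89), Ereg (1.25) and Cst8 (1.43). For Fbp2 they were Pax7 (0.49), Fbp1 (0.83), Ereg (1.31), Oosp1 (1.35) and Pak3 (1.80). Pax7 was at 0 and 0.00777 FPKM in Control and at 2.72 and 2.19 FPKM in Shh-Stk11 lungs, so that its difference and its place depend on the pseudocount of 0.1. Cst8, a cystatin gene, was at 1.27 and 0.447 FPKM in Control and at 6.67 and 8.92 FPKM in Shh-Stk11 lungs. Pak3, which encodes a p21-activated kinase, was at 0.304 and 0.438 FPKM in Control and at 3.5 and 2.57 FPKM in Shh-Stk11 lungs. Pax7, Oosp1, Ereg and Pak3 had Control means under the filter of 0.5 FPKM and passed it only through their Shh-Stk11 values. Fbp1 and Fbp2 were chosen for their rise, so this distance picks out genes with a large rise, including each other. With 2 libraries a genotype, this likeness is a description without a test.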

How the data were processed

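Total RNA of whole E16.5 lungs was sequenced by the authors as single-end 50-base reads. The submitters' processing notes name TopHat2 2.0.13, Cufflinks 2.2.1 and both GRCm38 and mm9, so the build behind the table is not settled and no gene positions are given apart from the RefSeq promoter windows, which have a build of their own. The authors deposited FPKM values per gene and library, not counts, and no count model was used. The methods speak of independent biological replicates, but the sources used here do not say whether libraries came from separate litters, and p-values measure the spread between these libraries.

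The comparison used limma 3.58.1 in R 4.3.3 on log2(FPKM + 0.1) for genes whose mean over the libraries reached 0.5 FPKM. Genotype was the only term, eBayes used a trend on mean expression (4.48 prior and 2 residual degrees of freedom), tests were two-sided, and p-values were adjusted by Benjamini-Hochberg over all 13770 genes with a threshold of 0.05. The fit was also run on simulated data with independent noise and without sex or litter effects. That run checks only the working of the fit, and no result here rests on it. An SD is over n = 2 libraries.

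Of 1806 low genes (under 0.3 FPKM but not 0 in any library), 73% were whole multiples of a step (tolerance 0.02 reads, at most 10 steps in the lowest library). Depths assume that 200 bases are lost from a transcript's length. Symbols were matched to GENCODE M21 and RefSeq (GRCm38.p6), which also gave lengths and GC content.

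Members and lists were chosen with earlier results of these data known. Named were all members, in each list the genes past the threshold and the one with the largest difference, the 5 coding genes on either side of the pair, the 5 genes nearest to Fbp1 and to Fbp2, and from the marker lists the most abundant and called genes. Other genes, among them Epcam, Cdh1, Sox9, Mylpf, Scgb1a1, Cyp2f2, Muc5b, markers at 0, Pgam1, Gpd2, Sord, Creb1, Nr4a1 and the phosphofructokinases, were chosen after their values were seen. Alternatives were other pseudocounts, filters and scalings, eBayes without the trend, a replicate block, removal of length and GC trends, and leaving out each library. One enzyme was left out of the lists and is not reported here.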

Additional observations from a re-analysis of the deposited data

How the results depend on the processing

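The limits are set by 2 libraries a genotype and by the low Control levels of Fbp1 and Fbp2, at 20 to 31 reads. Both stayed higher in Shh-Stk11 lungs under all 14 alternatives. The log2 difference of Fbp1 was 3.22 with a pseudocount of 1, 4.55 with one of 0.01 and 4.52 with the length and GC trends removed, and that of Fbp2 was 3.48 with a pseudocount of 1; their other values moved by less than the spread between replicates. None of the 4 other tested members was called under any of the 14. The differences of 3 of them turned in sign: G6pc3 (0.04) and Slc37a4 (0.01) with the length and GC trends removed, and Pcx (0.02) without Control 1, within -0.32 to 0.02 over the omitted libraries. Fancc turned to 0.01 with median-ratio scaling, 0.11 with the trends removed, and with a library left out ranged from -0.20 to 0.14, positive without Control 2 (0.09) and without Shh-Stk11 1. One neighbour, Zfp935, was called with a pseudocount of 0.01 (limma adjusted p 0.0454).

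Over all genes, 313 were called, against 61 with no filter, 200 with a filter of 5 FPKM, 187 with the trends removed and 38 to 191 with a library left out. Of the pathway genes 2 were called, against 1 with no filter, 1 with the filter of 5 FPKM, which drops Ppargc1a, 1 with the trends removed and 0 to 2 with a library left out. Apart from the filter of 5 FPKM and the omitted libraries, the cause was not tested.

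The replicate numbers are shared by the genotypes, and the labels do not say what a number stands for. The deviations of same-numbered libraries had a correlation of -0.114. With a replicate block 13 genes, 0 pathway genes and 0 neighbours were called. With the pairing crossed, an alternative chosen after seeing the data, there were 675 genes, 5 pathway genes and 1 neighbour.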
